A study of Mus musculus with 10 samples.

Results

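The 10 genes described here are transcriptional targets of p53 that belong to stress signalling and DNA repair rather than to arrest or death: Sesn1, Sesn2, Ddit4, Gdf15, Phlda3, Zmat3, Rrm2b, Xpc, Ddb2 and Polk. They were chosen by name, as the non-control probes that the array files assign to these symbols, which gave 15 probes for 10 of 25160 named genes. Of the 10, 9 could be tested in colon tissue and 8 in organoids. Tissue contributed 13152 tested genes in all and organoids 11340.

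p53, the product of Trp53, is a transcription factor that accumulates after DNA damage and other stresses and switches on genes that halt, repair or remove the cell. The genes followed here act on the protective side. Sestrins and Ddit4 restrain the growth kinase complex mTORC1, Phlda3 competes with the kinase AKT for membrane lipid, Zmat3 binds RNA and alters its splicing and stability, and Gdf15 is a secreted stress cytokine. Xpc and Ddb2 recognise damaged bases for nucleotide excision repair, Polk copies past damaged bases, and Rrm2b is a subunit of the enzyme that makes deoxynucleotides. Several of these genes, Sesn2, Ddit4 and Gdf15 among them, are also switched on by the stress factor ATF4 without p53.

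The study asked what p53 does in colon repair after chemically induced colitis. Tissue came from male mice of an Axin2CreERT2 by Trp53 fl/fl cross, in which a tamoxifen-activated recombinase works in Axin2-expressing cells only. Those cells and their offspring can lose p53, and other cells of the KO colon keep it. All mice, WT included, received 2% dextran sodium sulfate (DSS, which injures the colon lining) in their water for 5 to 7 days, and colon was taken 2 months after DSS. There were 2 KO and 2 WT mice, whose age is not given in the sources used here, in 2 pairs, each pair hybridised in both dye orientations. Organoids, epithelial cultures grown in gel from colon crypts, came in 3 groups with 2 replicates each. WT and KO organoids grew in full medium with 0.328 nM surrogate Wnt, 3 µM CHIR (a GSK3 inhibitor that activates Wnt signalling), noggin at 100 ng/ml, EGF at 50 ng/ml and 25% R-spondin conditioned medium. KO organoids were made from VillinCreERT2 Trp53 fl/fl cultures, in which the recombinase works in epithelium, with 800 nM 4OH-tamoxifen over 2 days. They were then selected with Nutlin-3A, which holds back cells that have p53. All media also held the antioxidant N-acetylcysteine and the TGFβ receptor inhibitor A83-01, and a ROCK inhibitor was present at seeding and after passaging. KOWI organoids were KO cultures labelled Wnt-independent and grown without surrogate Wnt and CHIR, so the medium and adaptation to it cannot be told apart. Whether the WT mice and WT organoids carried the recombinase or received tamoxifen is not given in the sources used here. The 6 organoid samples were compared on 6 arrays in a loop. Every replicate 1 carried the dye Cy3 and every replicate 2 the dye Cy5. An effect of dye and one of replicate number cannot be told apart there. The series' design text calls both sets of replicates independent, and the labels name separate mice for tissue but not for organoids, so the spread between organoid samples may be partly technical.

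In each channel 44.6% to 59.1% of the spots were well above background. The 4 arrays with KOWI stood apart by 13.7% to 16.3% of spots carrying an outlier mark of the scanner software, against 0.808% and 2.18% on the 2 arrays of KO with WT. Trp53 itself was well above background in 4 of 4 WT organoid channels and in 0 of 4 KO and 0 of 4 KOWI channels. Against WT its log2 ratios were -1.07 and -0.59 for the KO replicates and -0.95 and -0.64 for the KOWI replicates, and the dim signal limits both. In tissue it was well above background in all 8 channels, with -0.46 in pair 1 and 0.04 in pair 2. Whether the probe lies in the deleted stretch was not checked. All 15 epithelial markers were well above background in every organoid sample. Among other cell types that was so for 1 of 10 fibroblast, 4 of 9 smooth muscle, 4 of 12 skeletal muscle, 7 of 13 leukocyte and 2 of 7 endothelial markers, with Col1a2, Col3a1, Ckm, Cdh5 and Kdr not well above background in any organoid sample. The summed intensity of the endothelial markers ran from 4780 to 6299 in WT, 9512 to 11775 in KO and 14644 to 18572 in KOWI. Of these 7 markers, however, 5 (Cdh5, Emcn, Kdr, Tek and Tie1) were well above background in no organoid sample. None of the 7 could be tested between groups. The sums of the other non-epithelial types did not rise in these steps. The part of the endothelial sum in the results was not tested.

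The arrays read each gene through 60-base oligonucleotides, and the first 30 bases of the probe are shown for the 3 members with the lowest KO over WT ratios in organoids. The Zmat3 probe lies at chr3:32233831-32233890 on the minus strand, the Phlda3 probe at chr1:137665642-137665701 on the plus strand and the Sesn1 probe at chr10:41628000-41628059 on the plus strand, all on mm9. The exon or UTR they fall in was not determined.
Zmat3: tccttcagcctaataaatacagaagtctga
Phlda3: gtaagggttggccctttaccatttcatgct
Sesn1: tgctgacctcgggaccctgactttgaaggt

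p53 binds DNA as a tetramer at a pair of half-sites of 10 bases each. RefSeq start-site windows (GRCm38.p6, 250 bases before to 50 after each start) were at hand for 6 members, namely Sesn1, Sesn2, Phlda3, Gdf15, Ddit4 and Polk. The p53 half-site consensus, which reads the same on both strands, matched in 2 of the 9 windows of these 6 genes, once in Sesn1 and once in Polk, and in 8.36% of all 32851 windows. A full site, a pair of half-sites up to 13 bases apart, was in 0.0731% of windows and in none of these members. The stretches of 60 bases around the matches are given with the half-site in capitals. For Sesn1 it lies 173 bases before the start of window 2 (chr10:41887241-41887300, plus strand). For Polk it lies 231 bases before the start site of window 1 (chr13:96519378-96519437, minus strand). The other window of each gene held no match, and that of Polk lies further upstream (chr13:96542530-96542829). Beside these stretches stands a match to the full site in Cdkn1a, the classical p53 target, with both matched half-sites and their spacer in capitals. It begins 73 bases before the start site that window 1 of this gene spans, inside that window (chr17:29090892-29090951, plus strand). Window 2, around a start site further downstream (chr17:29093519-29093818), held no match. The capitals mark what the consensus matched and need not be the bases that p53 binds. A match is only a likeness of letters, and many p53 sites lie outside such windows.
Sesn1: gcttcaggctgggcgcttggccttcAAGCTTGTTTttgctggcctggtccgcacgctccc
Polk: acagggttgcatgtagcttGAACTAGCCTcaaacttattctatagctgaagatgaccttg
Cdkn1a: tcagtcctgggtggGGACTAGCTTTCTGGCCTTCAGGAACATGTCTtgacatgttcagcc

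In organoids without p53, the RNA-binding gene Zmat3 and the AKT antagonist Phlda3 lay furthest below WT among the members. In KO over WT no gene passed the adjusted threshold of 0.05, so no member is called there, yet Phlda3 had the second lowest log2 ratio of 11340 genes and Zmat3 the 26th lowest. In KOWI over WT Zmat3 fell and was the only member called. Sesn1, Polk and, by less, Ddit4 lay lower in KO than in WT in both replicates. In the same contrast Gdf15 was lower in replicate 1 only, Ddb2 was higher in both replicates, and Xpc differed in sign between them.

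**Figure D1:**
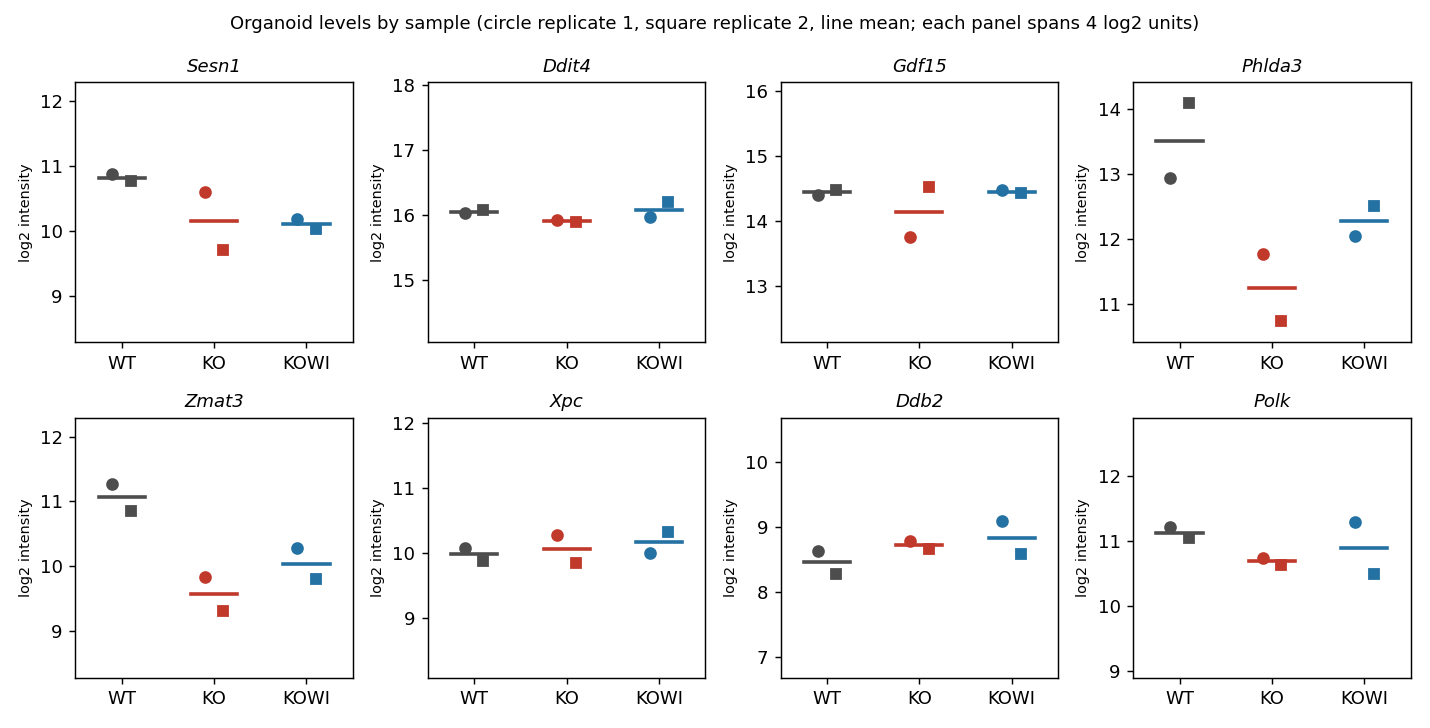
Fitted log2 intensity of the 8 members tested in organoids (vertical axis, 4 log2 units in each panel) in WT, KO and KOWI, with circles for replicate 1, squares for replicate 2 and a line at the mean. Zmat3, Phlda3 and Sesn1 have both WT samples above all KO and KOWI samples, and the share of all genes that do so was not counted.

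Zmat3 stood at a fitted log2 intensity of 11.26 and 10.86 in the WT replicates, 9.84 and 9.32 in KO, and 10.28 and 9.80 in KOWI. Both WT samples were above all 4 samples without p53, and the KO and KOWI ranges overlapped. How many of all genes tested separate by group was not counted, for Zmat3 here or for Phlda3 and Sesn1 below. The KO over WT log2 ratio was -1.42 in replicate 1 and -1.55 in replicate 2, a 2.79-fold lower level (mean -1.48, SE 0.16, limma adjusted p = 0.191). That p-value was the ninth smallest of the contrast before adjustment. KOWI over WT was -0.98 and -1.06, a 2.03-fold fall that passed the threshold (mean -1.02, SE 0.16, limma adjusted p = 0.0334). KOWI over KO was 0.44 and 0.49 (mean 0.46, SE 0.16, limma adjusted p = 0.292). The KOWI over WT call was lost in 10 of 16 alternatives, with adjusted p from 0.0696 to 0.362 there. They include leaving out either WT replicate (0.362 without replicate 1, 0.256 without replicate 2), KO replicate 2 (0.238) or either KOWI replicate (0.120 and 0.169), while the log2 ratio stayed between -1.18 and -0.94. On single arrays KO over WT was -2.03 for KO replicate 2 in Cy5 with WT replicate 1, and -1.10 for KO replicate 1 in Cy3 with WT replicate 2.

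Phlda3 had the widest range, with 12.94 and 14.09 in WT, 11.77 and 10.73 in KO, and 12.04 and 12.51 in KOWI. WT was highest, KOWI intermediate and KO lowest, with no overlap between any 2 groups. KO over WT was -1.17 in replicate 1 and -3.36 in replicate 2, 4.80-fold lower on average (mean -2.26, SE 0.50, limma adjusted p = 0.549). These replicate ratios come from the fit, as no array set same-numbered KO and WT samples together. The 2 arrays that set KO against WT directly read -2.21 and -2.32. KOWI over WT was -0.90 and -1.58 (mean -1.24, SE 0.50, limma adjusted p = 0.220), and KOWI over KO was 0.27 and 1.78 (mean 1.02, SE 0.50, limma adjusted p = 0.477). The spot on 1 of the 2 arrays of KOWI with WT was marked as an outlier and left out. WT replicate 2 was then joined to the other samples only by its array with KO replicate 1. The spread between the fitted replicates rests on that array. With the outlier spot kept, KOWI over WT was -0.83 and KO over WT -2.06 (SE 0.28 for both). Without WT replicate 2 the ratios were -0.52 and -1.54, so their size rests in part on that sample.

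Among the genes that restrain mTORC1, Sesn1 stood at 10.88 and 10.77 in WT, 10.60 and 9.70 in KO, and 10.19 and 10.04 in KOWI. The WT samples lay above the other 4, and the KO samples enclosed the KOWI ones. Its log2 ratio over WT was -0.28 and -1.07 in KO (mean -0.68, SE 0.25, limma adjusted p = 0.865) and -0.68 and -0.74 in KOWI (mean -0.71, SE 0.25, limma adjusted p = 0.167). KO replicates of Sesn1 thus differed more from each other than the KOWI replicates did. Its KO over WT ratio was -0.25 without KO replicate 2, -0.43 without WT replicate 2 and -1.02 without KO replicate 1. Sesn2 had outlier spots on all 4 KOWI arrays and was not tested in organoids. The 2 arrays of KO with WT gave -0.21 and -0.42, a mean of -0.31 with no test. Kept in, its outlier spots gave -0.26 for KO over WT and -0.18 for KOWI over WT. Ddit4, a bright probe, lay within a narrow range: 16.03 and 16.08 in WT, 15.92 and 15.89 in KO, and 15.97 and 16.19 in KOWI. Its ratios to WT were -0.15 in KO (SE 0.17) and 0.03 in KOWI (SE 0.17).

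The secreted cytokine Gdf15 stood at 14.40 and 14.48 in WT, 13.74 and 14.52 in KO, and 14.47 and 14.42 in KOWI. KO replicate 1 alone was low. The KO over WT ratio was -0.65 in replicate 1 and 0.04 in replicate 2 (mean -0.31, SE 0.25), and without KO replicate 1 it was 0.07. KOWI over WT was 0.01 (SE 0.25). One array of KOWI with KO was missing for Gdf15 because of an outlier spot.

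Among the repair genes, Polk, the translesion polymerase, was at 11.21 and 11.05 in WT, 10.75 and 10.63 in KO, and 11.30 and 10.50 in KOWI. KO lay below WT in both replicates by -0.47 and -0.42 (mean -0.44, SE 0.23, limma adjusted p = 0.989), while the KOWI replicates lay on either side of WT, at 0.09 and -0.55. The other 2 Polk probes were not well above background in tissue, and in organoids only 1 of their channels was.

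Xpc was at 10.08 and 9.89 in WT, 10.28 and 9.84 in KO, and 10.00 and 10.32 in KOWI. The ranges of the 3 groups overlapped, and its ratios to WT were 0.08 in KO and 0.18 in KOWI (SE 0.23 for both). The second Xpc probe, which spans an intron by its coordinates and is dimmer, gave -0.20 for KO over WT, the opposite sign. Ddb2 was at 8.63 and 8.27 in WT, 8.78 and 8.66 in KO, and 9.08 and 8.58 in KOWI. It was the member with the highest mean ratio to WT in both groups, at 0.26 in KO (SE 0.18) and 0.38 in KOWI (SE 0.18, limma adjusted p = 0.280). Its second probe read 0.27 and 0.41, close to the first. Rrm2b was not well above background in any of 8 tissue channels with either probe. In organoids 1 probe was so in 1 of 4 WT, 0 of 4 KO and 2 of 4 KOWI channels and the other in none, so no ratio is given.

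**Figure D2:**
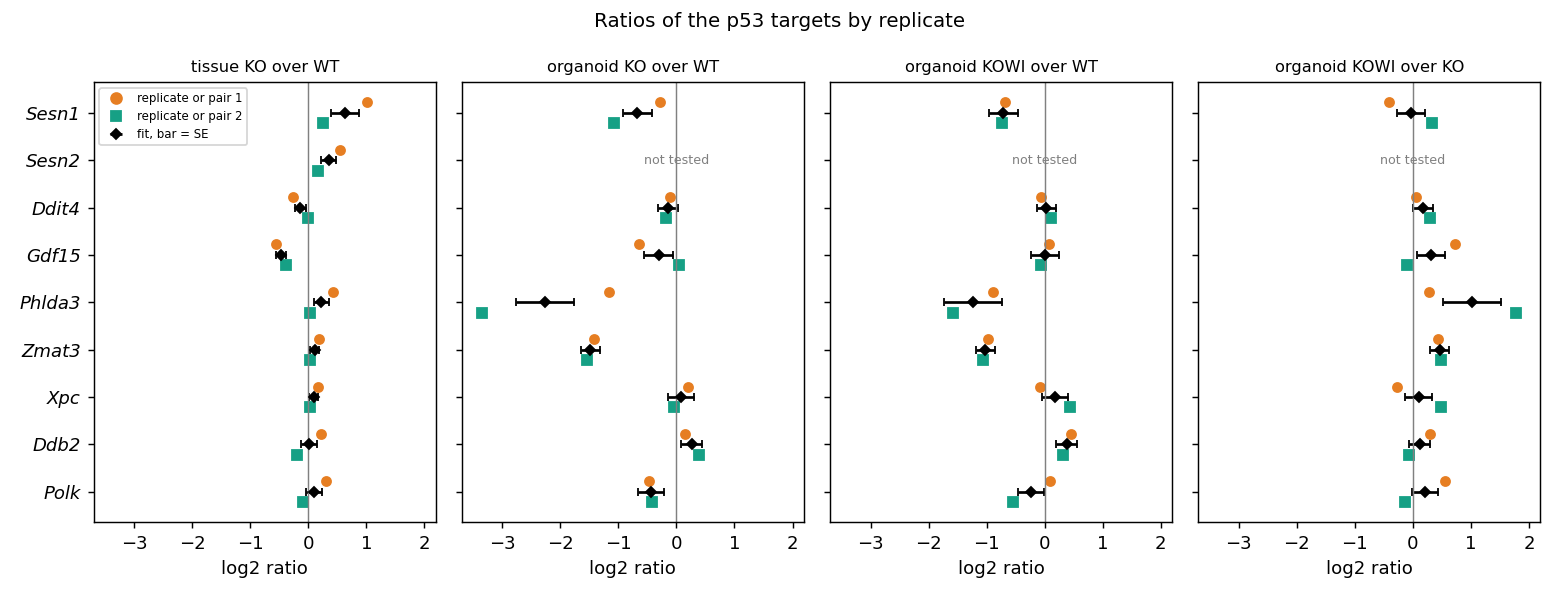
Log2 ratio (horizontal axis) of each member in the 4 contrasts, with circles and squares for replicates or pairs 1 and 2 and diamonds for the fit with its standard error. In organoid KO over WT the fitted ratios of Zmat3 lie close together at -1.42 and -1.55, while those of Phlda3 lie far apart at -1.17 and -3.36. The single arrays of KO with WT, which joined different replicate numbers, differed the other way. They read -2.03 and -1.10 for Zmat3 and -2.21 and -2.32 for Phlda3.

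Counted over the contrasts, in KO over WT 0 of 8 members were called by limma, as were 0% of all genes tested (0 of 11340, smallest adjusted p = 0.0657). At an unadjusted p under 0.05 there were 3 members, Zmat3, Phlda3 and Sesn1, and 606 genes. Both replicates were lower for 5 of 8 members, Sesn1, Zmat3, Phlda3, Ddit4 and Polk, against 20.2% of all genes. The median log2 ratio of the 8 was -0.37, against 0.06 over all genes. In KOWI over WT 1 of 8 members was called, against 5.42% of genes in either direction and 2.05% in the lower direction. Both replicates were lower for 3 of 8 members, Sesn1, Zmat3 and Phlda3, against 29.5% of genes, and the medians were -0.11 and 0.02. In KOWI over KO 0 of 8 members were called by limma, and 0.432% of genes were called. An unadjusted p under 0.05 was reached by 1 of 8 members and by 1592 of 11340 genes. Both replicates were higher for 3 of 8, Zmat3, Phlda3 and Ddit4, against 24.1% of genes. The 2 contrasts over WT share the WT samples, and KOWI over KO shares its samples with both.

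**Figure D3:**
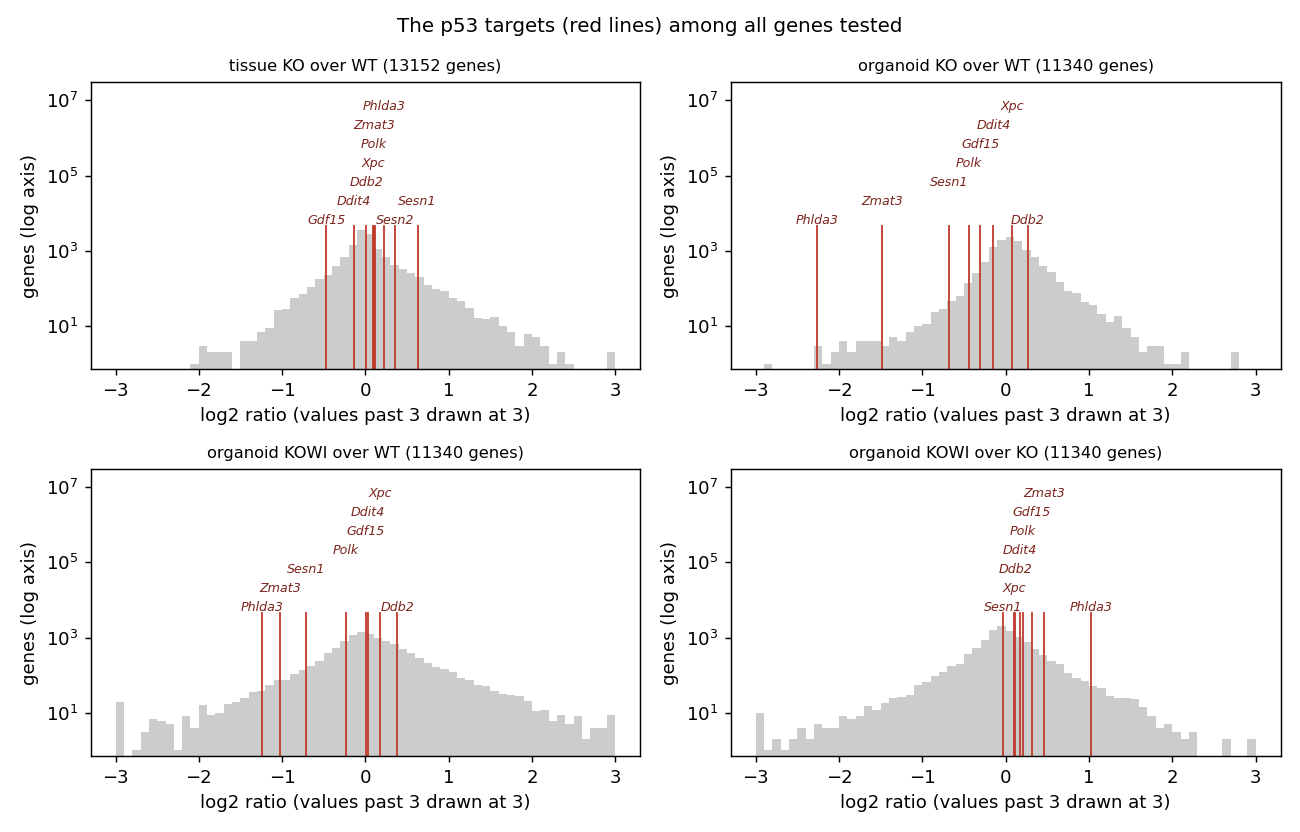
Number of genes (vertical log axis) by log2 ratio (horizontal axis, 0.1 wide bins, values past 3 drawn at 3) in each contrast, with the members as red lines. In organoid KO over WT the lines of Phlda3 at -2.26 and Zmat3 at -1.48 stand in the thin left tail, and in tissue the 9 lines run from -0.47 to 0.63.

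In colon tissue, where only Axin2-expressing cells and their offspring could lose p53, the members came in another order. Sesn1 and Sesn2 lay above WT and Gdf15 below it in both mouse pairs, and Zmat3 and Phlda3 were close to WT or above it. No gene of 13152 passed the threshold (0%, smallest limma adjusted p = 0.248), so no member is called. At an unadjusted p under 0.05 there were 1944 genes and 1 member, Gdf15. In bulk tissue fewer cells of a type and less RNA per cell cannot be told apart.

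**Figure D4:**
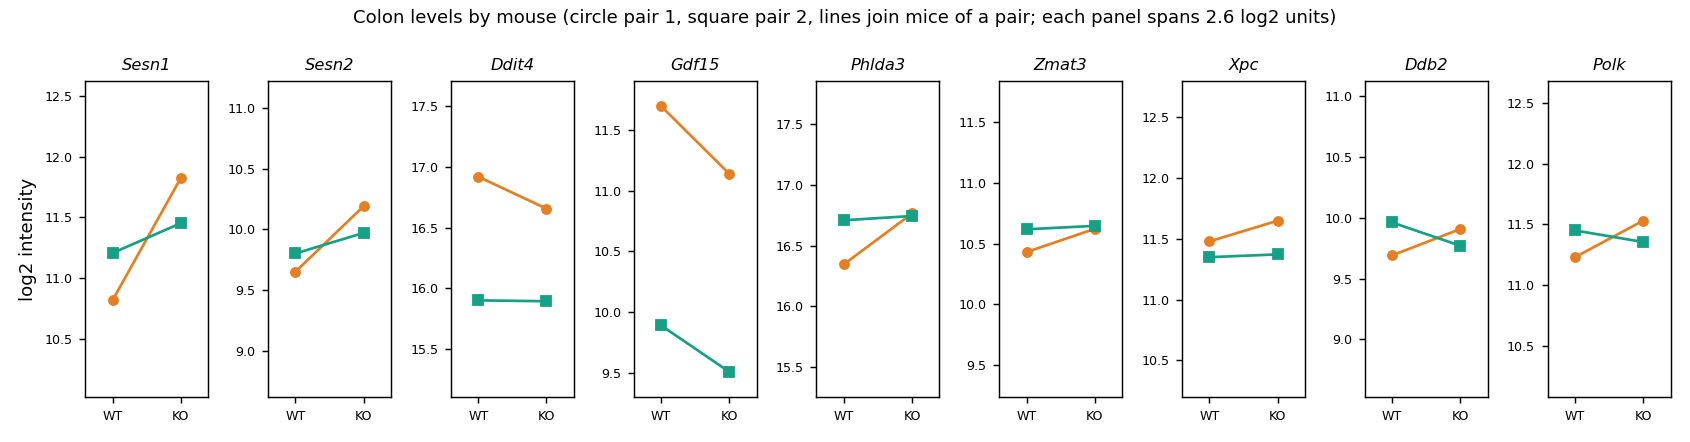
Log2 intensity (vertical axis, 2.6 log2 units in each panel) of the 9 members tested in colon, with circles for pair 1, squares for pair 2 and lines from the WT to the KO mouse of a pair. Sesn1 and Sesn2 slope upward and Gdf15 downward in both pairs, and the 2 pairs of Gdf15 and Ddit4 sit at different levels.

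Sesn1 was at 10.82 in WT and 11.83 in KO of pair 1, and at 11.21 and 11.45 in pair 2. Both KO mice were above both WT mice, and how many of all genes tested in tissue were so placed was not counted. The pair ratios were 1.01 and 0.25, a 1.54-fold higher mean level (mean 0.63, SE 0.24, limma adjusted p = 0.395). Sesn2 likewise had both KO mice above both WT mice, with 9.65 against 10.19 in pair 1 and 9.80 against 9.97 in pair 2 (mean 0.35, SE 0.13, limma adjusted p = 0.384). Ddit4 was at 16.92 and 16.66 in pair 1 and 15.90 and 15.89 in pair 2. Its pair ratios were -0.26 and -0.01, so the pairs differed from each other more than KO from WT.

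Gdf15 was at 11.70 in WT and 11.14 in KO of pair 1, and at 9.89 and 9.51 in pair 2. The KO mouse was lower within each pair, while the mice of pair 1 were both above those of pair 2. The ratio was 1.39-fold lower (pairs -0.56 and -0.38, mean -0.47, SE 0.08, limma adjusted p = 0.265). Leaving out 1 mouse unpairs the comparison and gave 0.43 without WT replicate 1 and 0.34 without KO replicate 2, the opposite sign, and -1.37 without WT replicate 2 and -1.29 without KO replicate 1.

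Phlda3 was at 16.35 and 16.76 in pair 1 and 16.71 and 16.74 in pair 2 (mean 0.23, SE 0.13), and Zmat3 at 10.43 and 10.62 in pair 1 and 10.62 and 10.65 in pair 2 (mean 0.11, SE 0.08). The sign of Zmat3 followed the dye: KO over WT was -0.01 and -0.20 with KO in Cy5 and 0.39 and 0.25 with KO in Cy3. For Phlda3 that held in pair 2 only, at -0.12 with KO in Cy5 and 0.19 with KO in Cy3. Xpc had pair ratios of 0.17 and 0.02, Polk 0.30 and -0.10, and Ddb2 0.22 and -0.19. The second Ddb2 probe gave 0.13 in pair 2 with an outlier spot kept, the opposite sign to the first. Both pairs were higher in 5 of 9 members, Sesn1, Sesn2, Zmat3, Phlda3 and Xpc, against 32.2% of all genes, and the median of the 9 was 0.10 against -0.00 over all genes.

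Markers of cell types differed between the KO and WT colons as well. Of 14 epithelial markers tested 0 were higher in KO (median log2 -0.14, with -0.17 in pair 1 and -0.10 in pair 2), and their summed intensity was 1780210 to 1910240 in WT and 1666990 to 1718010 in KO. Skeletal muscle markers were higher for 11 of 11 (median 0.39, with 0.53 in pair 1 and 0.25 in pair 2) and summed to 600643 to 914915 in WT and 776019 to 1095520 in KO. Smooth muscle markers were higher for 9 of 9 (median 0.17, with 0.22 and 0.09 in the pairs) and fibroblast markers for 9 of 9 (0.24, with 0.04 and 0.32). Leukocyte markers were higher for 8 of 9 (0.19, with 0.18 and 0.23) and endothelial markers for 5 of 5 (0.35, with 0.08 and 0.56). The part of these markers in the members' tissue ratios was not tested.

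The KO over WT ratios of tissue and organoids were set against each other for the 8 members tested in both. Organoid minus tissue was -1.59 for Zmat3 (SE 0.14, limma adjusted p = 0.159), -2.49 for Phlda3 (SE 0.76, limma adjusted p = 0.369) and -1.30 for Sesn1 (SE 0.39, limma adjusted p = 0.369). In these 3 genes both pairs were above WT in tissue and both replicates below it in organoids, and 17.6% of the 10087 genes tested in both had opposite signs in this way, in either direction. Polk differed by -0.54 (SE 0.18, limma adjusted p = 0.386), and Gdf15, Ddit4, Xpc and Ddb2 by 0.16, -0.01, -0.02 and 0.25. No gene passed the threshold for this difference by limma, and 1224 had an unadjusted p under 0.05. The Cre driver, DSS, the cell mixture and the slide differed between tissue and organoids too and cannot be told apart here.

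Genes related to the members by pathway were described from 6 lists. As background for the sign counts of every list, 4363 of all 11340 genes were negative in KO over WT. That number was 5381 in KOWI over WT, 6238 in KOWI over KO and 6723 of 13152 in tissue. Of 33 other p53 targets 29 were tested. In KO over WT 23 of 29 were negative (median -0.27, against 0.06 over all genes), and none was called. The lowest were Mgmt, which removes alkyl groups from DNA, at -2.12 (SE 0.26) and the cyclin Ccng1 at -2.10 (SE 0.53). In KOWI over WT 22 of 29 were negative (median -0.33), with 2 lower and 1 higher by the test. Mgmt fell 3.53-fold (-1.82, SE 0.26, limma adjusted p = 0.0284) and Zfp365, which guards replication forks, fell 2.01-fold (-1.01, SE 0.16, limma adjusted p = 0.0344). Pmaip1, which encodes the death-promoting protein Noxa, rose 3.62-fold (1.86, SE 0.26, limma adjusted p = 0.0280). Of the alternatives, 7 of 16 lost the call of Mgmt, 10 of 16 that of Zfp365 and 7 of 15 that of Pmaip1. In tissue 15 of 29 were positive (median 0.02), with Zfp365 at 0.58 and Mgmt at 0.50. In KOWI over KO 17 of 29 were positive (median 0.02), with Pmaip1 at 1.46 and Pvt1 at 0.97. None was called in these contrasts.

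Of 15 paralogs and partners of the members, 11 were tested in organoids. Of these, 2 of 11 were negative in KO over WT, against 4363 of all 11340 genes, and none was called (median 0.37, though 0.09 and 0.14 as medians of the single replicates). Ddit4l, the paralog of Ddit4, was the lowest at -1.63 (SE 0.51), and Rrm2, which replaces Rrm2b in dividing cells, was at 0.70 (SE 0.50) with replicates of 0.04 and 1.36. Phlda1, a relative of Phlda3, rose 3.64-fold in KOWI over WT (1.86, SE 0.17, limma adjusted p = 0.0155) and 2.82-fold in KOWI over KO (1.50, SE 0.17, limma adjusted p = 0.0461), the only gene of the list called in either. The calls were lost in 5 and 10 of 15 alternatives. In those contrasts 7 and 6 of 11 were positive, with medians of 0.17 and 0.01. In tissue 7 of 12 were positive (median 0.03), with Ddit4l at 0.65 and Rrm2 at 0.24, none called.

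**Figure D5:**
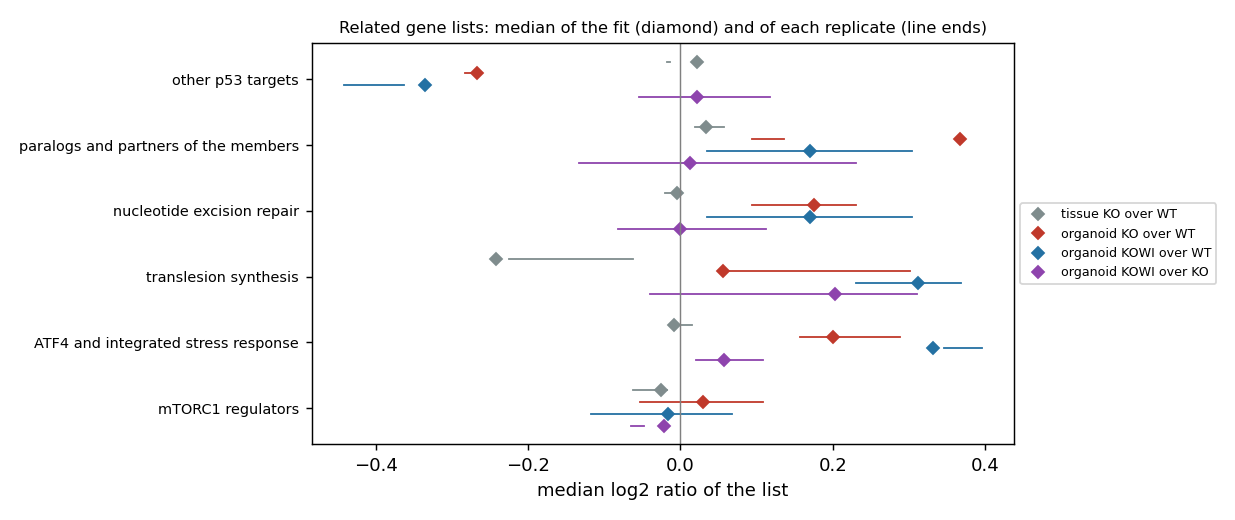
Median log2 ratio (horizontal axis) of 6 lists of related genes in the 4 contrasts, with diamonds for the fit and line ends for the medians of replicates 1 and 2. The other p53 targets lie left of 0 in both organoid contrasts over WT (-0.27 and -0.33), and the ATF4 list lies right of it (0.20 and 0.33).

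The wider repair pathways of Xpc, Ddb2 and Polk were measured too. Of 25 nucleotide excision repair genes 21 were tested in organoids, with 16 positive in KO over WT (median 0.17) and 15 in KOWI over WT (median 0.17). Cul4b, a scaffold of the ubiquitin ligase that Ddb2 belongs to, rose 1.87-fold in KOWI over WT (0.90, SE 0.17, limma adjusted p = 0.0467), the only one called, and 12 of 16 alternatives lost the call. The largest in KO over WT were Lig1 at 0.51 (SE 0.25) and Ddb1, the partner of Ddb2, at 0.47 (SE 0.17). In KOWI over KO 10 of 21 were positive (median -0.00), led by Cul4b at 0.68 and Xpa at -0.53. In tissue 12 of 24 were positive (median -0.00), with Rpa3 at -0.39 and Gtf2h2 at -0.22. Of 13 translesion genes 11 were tested in organoids. Rev3l, the catalytic subunit of polymerase zeta, rose 1.93-fold in KOWI over WT (0.95, SE 0.18, limma adjusted p = 0.0460), where 9 of 11 were positive (median 0.31), and 13 of 16 alternatives lost its call. In KO over WT 7 of 11 were positive (median 0.06), with Poli at 0.59 and Polq at 0.41. In KOWI over KO 7 of 11 were positive (median 0.20), with Rev3l at 0.96 and Poli at 0.73. In tissue 8 of 9 were negative (median -0.24), with Rev3l at -0.39 and Poli at -0.30. None was called in those 3 contrasts.

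ATF4 and mTORC1 genes touch Sesn2, Ddit4 and Gdf15. Of 30 ATF4 and integrated stress response genes 26 were tested in organoids. In KO over WT 25 of 26 were positive (median 0.20), none called, with the lipoprotein receptor Vldlr at 1.19 (SE 0.23) and the serine synthesis enzyme Psat1 at 0.89 (SE 0.19). In KOWI over WT 24 of 26 were positive (median 0.33), and 3 rose: Vldlr 2.93-fold (limma adjusted p = 0.0296), Psat1 2.18-fold (limma adjusted p = 0.0384) and the folate enzyme Mthfd2 2.05-fold (limma adjusted p = 0.0324). Alternatives lost these calls in 8 of 12, 10 of 12 and 10 of 16 settings. Ddit4 at 0.03 and Gdf15 at 0.01 lay below that list's median in this contrast. In KOWI over KO 14 of 26 were positive (median 0.06), with Slc7a11 at 0.70 and Atf4 at 0.62. In tissue 13 of 27 were positive (median -0.01), with Slc7a11 at 0.70 and Trib3 at 0.39. Of 27 mTORC1 regulators 23 were tested in organoids, with 14 positive in KO over WT (median 0.03) and 11 in KOWI over WT (median -0.02). Prkaa2, a catalytic subunit of the energy sensor AMPK, fell 3.83-fold in KOWI over WT (-1.94, SE 0.28, limma adjusted p = 0.0292), the only one called, and 8 of 16 alternatives lost the call. It was at -1.74 (SE 0.28) in KOWI over KO, where 11 of 23 were positive (median -0.02) and Deptor was at -1.14. In KO over WT the GTPase Rraga was at 0.74 and Wdr59 at 0.40. In tissue 7 of 22 were positive (median -0.03), with the lysosomal GTPase gene Rragd at 1.19 (SE 0.06) and Castor2 at 0.68 (SE 0.06), none called. Under other scalings the medians of these 6 lists changed sign where they lay near 0: in tissue for the other p53 targets (-0.02) and the paralogs (-0.03) after median centring, and in organoids for paralogs (-0.01) and excision repair (0.08) in KOWI over KO and for mTORC1 regulators in all 3 contrasts (-0.00 to 0.05).

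Over the 6 organoid samples, the patterns most like each member's were ranked by Pearson's r among the tested genes. Zmat3 was closest to Zfp418 (0.989), Zfp365 (0.979) and Osbpl11 (0.966), and Zfp365 is itself on the list of p53 targets. Phlda3 was closest to Itgb4 (0.964), Maf (0.959) and Gsdmd (0.958), and Sesn1 to 1110059G10Rik (0.981), Mindy3 (0.980) and Smpd1 (0.972). Polk was closest to Phactr2 (0.985), Osbpl1a (0.981) and Ddias (0.980). Ddb2 was closest to Nudcd1 (0.999), Taf8 (0.996) and Cdc45 (0.995), and Xpc to Hax1 (0.987), Knop1 (0.980) and Ptpra (0.979). Gdf15 was closest to Kctd17 (0.960), Gm40309 (0.955) and Rab3a (0.953), and Ddit4 to Cpne5 (0.979), Gm8221 (0.968) and Nyap1 (0.967). With 6 samples that share arrays and a replicate or dye term, many genes reach such values, and they describe these samples only.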

How the data were processed

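The authors scanned 10 Agilent 2-colour arrays (design 074809) and extracted spot intensity with Feature Extraction 12.2.0.7, protocol GE2_1200_Dec17, per the file headers. The deposited mean intensity and median background intensity are not normalized. The deposited log10 ratio, Cy5 over Cy3, was background-subtracted and dye-normalized, per the file headers. The series' value table holds the authors' log2 ratios, Cy5 over Cy3, made with limma per the submitters' processing notes. Its slope on the scanner ratios was 0.967 to 0.999, its column medians ran from -0.000351 to 0.0173, and its centring is unknown.

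Intensities were corrected in R 4.3.3 with limma 3.58.1 (normexp, offset 50) and loess-normalized within arrays. Control spots had no weight and outlier spots were missing. Probes were named through RefSeq accessions (35405), symbols (9124) or synonyms (25) of GRCm38.p6, and 12051 stayed unnamed. Each gene was read by its brightest usable probe, one well above background in all channels of 1 group or more. Tissue pair ratios (dye swaps averaged) were tested against 0. Organoid arrays, at most 1 of 6 missing, were fitted to 6 sample values and tested with limma for group with a replicate term. Intensity levels are each gene's mean over arrays plus the fitted deviation. Organoid ratios by replicate are differences of these fitted values, as no array set same-numbered samples together. Every p was adjusted by Benjamini-Hochberg over all genes tested, with a threshold of 0.05, and the fits were tested on simulated data. Precision is limited by the number of arrays.

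The members, lists and alternatives were chosen with earlier results of these data known. All members were named, and from each list up to 4 called genes per contrast or, with none called, the 2 with the largest ratios. Each experiment lay on 1 slide. One tissue label gives another replicate number for its Cy3 source than the title, which was used.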

Additional observations from a re-analysis of the deposited data

Results flagged for a closer look

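The KO over WT log2 ratios of 3 members had opposite signs in tissue and organoids, with both pairs above 0 in tissue and both replicates below 0 in organoids. In tissue pair 2, however, the ratio was only 0.04 for Phlda3 and 0.03 for Zmat3, and its sign changed with the dye for both. Organoid minus tissue was -2.49 for Phlda3, -1.59 for Zmat3 and -1.30 for Sesn1. None of these differences passed the limma test after adjustment (0.369, 0.159 and 0.369), and 17.6% of genes tested in both had opposite signs in the same way, in either direction. That comparison was added after the data were seen. No group held 4 or more samples, so single samples were not screened.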

How the results depend on the processing

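Of 478 recalculated member ratios 425 kept their direction and side of the threshold, 34 changed sign, 9 passed it newly and 10, all Zmat3 in KOWI over WT, no longer passed. Zmat3, Phlda3 and Sesn1 stayed below WT in organoids in every alternative that could be fitted, and Sesn1 and Sesn2 above WT in tissue. Each group held 2 replicates. The 9 new calls all came from treating arrays as independent, which ignores the spread between samples.

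Members called in KOWI over WT numbered 1, but 0 with scanner software ratios, the authors' value table, median centring, outlier spots kept or no replicate block, and 0 to 1 when a sample was left out. With arrays as independent they were 4, and 1 in tissue, 3 in KO over WT and 2 in KOWI over KO. Genes called in KOWI over WT were 615, but 139 with scanner ratios, 4 with the value table, 248 with centring, 270 without the filter on dim probes, 6 with outlier spots kept, 4253 with arrays as independent and 19 to 789 when a sample was left out. In KOWI over KO they were 49, but 0 with scanner ratios, the value table or outlier spots kept, 24 with offset 16, 20 without the filter, 2567 with arrays as independent and 0 to 220 when a sample was left out. In KO over WT they were 0, but 1 with the mean of a gene's probes, 710 with arrays as independent and 0 to 6 when a sample was left out. In tissue they were 0, but 900 with centring (60.3% higher) and 932 with arrays as independent. The share of higher calls in KOWI over WT was 62.3%, but 50% with the value table, 33.3% with outlier spots kept and 70.2% with centring. It was 38.8% in KOWI over KO, but 25% with offset 16 or without the filter, 26.8% without the replicate block and 50.2% with arrays as independent. The causes were not tested.

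Without the replicate block Zmat3 in KOWI over WT had a limma adjusted p of 0.107 and 454 genes were called, with 41 in KOWI over KO. Same-numbered organoid samples deviated together with r of 0.20 for WT with KO, 0.17 for WT with KOWI and -0.01 for KO with KOWI across 11340 genes. Whether the numbers mark more than the dye cannot be told from these values, as dye and replicate number coincide. The block changed no other member's call.

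Signs changed for Ddb2 in tissue (-0.028 with scanner ratios, -0.056 with centring), for Xpc in KO over WT (-0.060 with the mean of its probes) and for Sesn1 in KOWI over KO (0.0047 with the value table, 0.052 with centring). In KOWI over WT they changed for Ddit4 (-0.0028 with offset 16) and for Gdf15 (-0.032 with the value table, -0.031 with offset 16, -0.094 with centring, -0.059 with outlier spots kept, -0.024 with arrays as independent). With a sample left out, tissue ratios ran from -1.37 to 0.43 for Gdf15, -0.64 to 0.37 for Ddit4, -0.042 to 0.24 for Xpc, -0.12 to 0.15 for Ddb2 and -0.0072 to 0.21 for Polk. KO over WT ran from -0.19 to 0.30 for Xpc and -0.31 to 0.071 for Gdf15. KOWI over WT ran from -0.091 to 0.12 for Ddit4, -0.11 to 0.52 for Xpc and -0.57 to 0.093 for Polk. KOWI over KO ran from -0.38 to 0.39 for Sesn1, -0.24 to 0.39 for Xpc, -0.089 to 0.22 for Ddb2, -0.11 to 0.55 for Polk and -0.063 to 0.55 for Gdf15.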
